A study of Mus musculus with 19 samples.

Results

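Facilitated sugar transporters of the Slc2a family (GLUT proteins) were examined in the quadriceps of SBMA knock-in mice. The set was fixed by gene symbol and held Slc2a1, Slc2a3, Slc2a4, Slc2a5, Slc2a8, Slc2a9, Slc2a10 and Slc2a12, which are 8 of the 30214 gene names on the array. Each had a single probe, and the probes of 7 of the 8 passed the filter on dim signals. SBMA, spinal and bulbar muscular atrophy, belongs to the polyglutamine diseases and affects motor neurons and muscle. AR113Q mice are a knock-in model, in which the expanded polyglutamine tract is carried by the endogenous gene rather than by a transgene, and wild-type mice served as controls (CTR). All mice were male, congenic on C57Bl6J and 180 days old, and from 40 days of age they were fed normal chow in purified form (NCD) or chow high in fat (HFD). On NCD there were 5 arrays of each genotype, and on HFD there were 4 arrays of CTR and 5 of AR113Q, 19 in all, hybridised with total RNA on one-colour Agilent mouse arrays. The labels do not state that each array held the RNA of a separate mouse, so the p-values measure the spread between these arrays.

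Slc2a proteins let sugars cross membranes down their concentration gradient, without spending energy. In skeletal muscle, GLUT4 (Slc2a4) is the carrier that insulin and contraction bring from internal vesicles to the surface, whereas GLUT1 (Slc2a1) sits at the surface in the resting state. GLUT5 (Slc2a5) carries fructose rather than glucose, and GLUT9 (Slc2a9) is best known as a urate carrier.

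The probes of the 4 transporters that passed the test in at least one comparison are shown by the first 30 of their 60 bases, 5′ to 3′, since every value below was read by them. The deposited files place them on mm9, and the exon or UTR they fall in was not annotated here. The Slc2a3 probe lies at chr6:122678075-122678134 (minus strand), the Slc2a4 probe at chr11:69756073-69756132 (minus strand), the Slc2a5 probe at chr4:149517775-149517834 (plus strand) and the Slc2a12 probe at chr10:22424022-22424081 (plus strand).
Slc2a3: gtgcttacacatttcagaccctttaggcaa
Slc2a4: gttttgaagaacggatagggagcagaaacc
Slc2a5: aggccatttgcgaagacacactgagcgtgg
Slc2a12: ggtaaatcctcacggttttaaagccgtcta
The Slc2a4 probe was printed in 10 spots on every array, which were averaged, and each of the other probes in 1 spot.

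Values are log2 signals relative to the 75th percentile of the same array, so a value of 0 is a signal equal to that percentile. Between 67.1% and 80.1% of probes per array were called well above background. Every one of the 12 muscle fiber markers (Acta1, Ckm, Myh4 and others) was well above background on all 19 arrays, which fits the tissue label. The 8 slow-fiber markers varied widely between arrays of the same group. On NCD their array mean lay between -0.10 and 4.0 for CTR and between 3.82 and 4.97 for AR113Q, and on HFD between -1.67 and 4.24 for CTR and between -0.41 and 3.57 for AR113Q. Of the markers of other cell types, 1 of 6 for fibroblasts was higher in AR113Q on each diet. For Schwann cells and nerve, 1 of 7 was higher on NCD. On either diet, 0 of 8 for macrophages, 0 of 8 for endothelial cells and 0 of 7 for red blood cells passed the test. Averaged over diets, 1 was higher in each of the fibroblast, Schwann cell and macrophage lists. In the endothelial and red blood cell lists 1 each was lower. Over all tested gene names, 17.4% were called on NCD, 17.9% on HFD and 29.1% averaged over diets.

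On NCD, 3 of the 7 tested transporters differed between AR113Q and CTR mice: Slc2a5 was higher, and Slc2a3 and Slc2a4 were lower. On HFD, 2 of the 7 differed, Slc2a5 higher and Slc2a4 lower. The share of all 32026 tested probes called at an adjusted p under 0.05 (limma, Benjamini-Hochberg) was 17.6% on NCD and 17.9% on HFD. Slc2a5 entered the test only through AR113Q, the genotype in which it was higher. The filter asked for 4 arrays well above background, and its 12 were 10 AR113Q and 2 CTR arrays. Its calls carry that selection. With signal required on all 19 arrays it was not tested. The counts were then 2 of 6 on NCD and 1 of 6 on HFD, beside 24.4% and 24.5% of all probes. No test set the family against that background. The median log2 difference over the 7 transporters was -0.06 on NCD and -0.09 on HFD, beside -0.05 and -0.07 over all tested probes, and transporters with a call lay on both sides of 0.

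**Figure D1:**
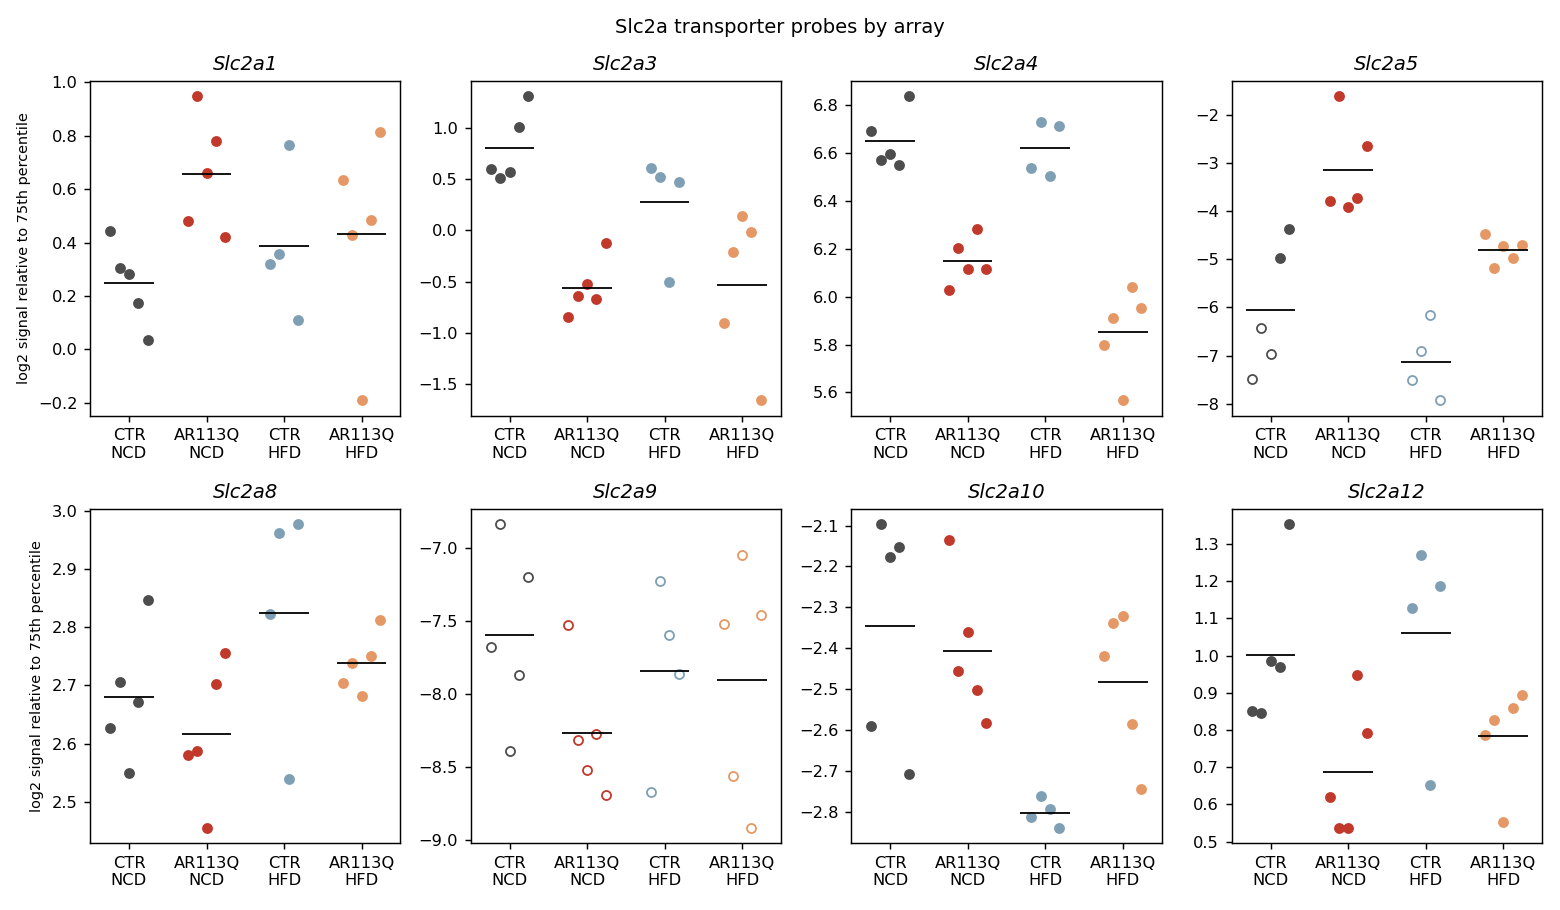
Log2 signal relative to the array's 75th percentile (y axis, a separate scale per panel) for the 8 Slc2a probes on each of the 19 arrays, by genotype and diet. Points are arrays, lines are group means, and open points were not well above background. Slc2a4 is lower in all 10 AR113Q arrays than in the 9 CTR arrays, Slc2a5 is open on 7 CTR arrays and on no AR113Q array, and Slc2a9 is open on all 19.

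Slc2a4, the insulin-responsive glucose carrier of muscle and fat, was lower in AR113Q muscle on both diets. Its log2 signal was 6.69, 6.57, 6.60, 6.55 and 6.84 on the CTR-NCD arrays and 6.03, 6.21, 6.11, 6.29 and 6.11 on the AR113Q-NCD arrays. On HFD it was 6.54, 6.73, 6.50 and 6.71 in CTR and 5.80, 5.91, 5.57, 6.04 and 5.95 in AR113Q. Every AR113Q array lay below every CTR array on either diet. The log2 difference was -0.50 ± 0.09 on NCD (SE, a fold of 0.707, adjusted p = 0.000773) and -0.77 ± 0.09 on HFD (a fold of 0.588, adjusted p = 3.09e-05, limma).

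The lower Slc2a4 signal was seen within slides too. The 19 arrays were spread over 5 slides, and each slide held arrays of both genotypes. The AR113Q minus CTR difference was below 0 on 5 of 5 slides on NCD (from -0.72 to -0.27) and on 4 of 4 slides on HFD (from -0.94 to -0.74). With HFD the AR113Q arrays also lay lower than with NCD, by -0.30 ± 0.09, but this did not pass the test over all probes (adjusted p = 0.482, limma), and neither did the genotype by diet interaction of -0.27 ± 0.13 (adjusted p = 1). Normexp background correction and scaling to the array median ended the NCD call, at -0.20 (adjusted p = 0.336) and -0.44 (adjusted p = 0.0651). Under normexp the median of all probes was -0.55 in that comparison, so that relative to it the Slc2a4 value was 0.35. A call rule that also asked for a fold of at most 0.6 left Slc2a4 out on NCD.

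Most markers of the muscle fiber itself were lower in AR113Q as well. Of the 12 muscle fiber markers, 8 were lower in AR113Q and 0 higher on NCD, and 8 lower and 1 higher on HFD. Their medians were -0.31 and -0.47. Over all tested gene names, 17.4% were called on NCD and 17.9% on HFD. On NCD their mean level per array ranged from 7.62 to 8.11 for CTR and from 7.61 to 7.81 for AR113Q, and on HFD from 7.48 to 8.22 for CTR and from 7.31 to 7.73 for AR113Q. The Pearson correlation of Slc2a4 with this mean was 0.61 over the 19 arrays, and 0.16 for deviations from the group means. The part of these markers in the Slc2a4 result was not tested. In bulk muscle, fewer cells of a type and less RNA per cell cannot be told apart.

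Slc2a12 (GLUT12), a further glucose carrier of muscle and fat, was lower in AR113Q with both diets combined. On neither diet alone did it pass the test in the main model, which held no block. Its log2 signal was 0.85, 0.85, 0.99, 0.97 and 1.35 in CTR-NCD, and 0.62, 0.54, 0.54, 0.95 and 0.79 in AR113Q-NCD. On HFD it was 1.13, 1.27, 0.65 and 1.19 in CTR, and 0.79, 0.83, 0.55, 0.86 and 0.89 in AR113Q. The groups overlapped on both diets, and the array at 0.65 stood low among the CTR-HFD arrays. The difference was -0.31 ± 0.13 on NCD (adjusted p = 0.104) and -0.28 ± 0.13 on HFD (adjusted p = 0.187), and averaged over diets it was -0.30 ± 0.09 (a fold of 0.815, adjusted p = 0.0224, limma). The averaged difference did not pass without CTR-HFD replicate 2 (-0.26, adjusted p = 0.0536), with scaling to the array median (-0.23, adjusted p = 0.194) or under normexp (-0.22, adjusted p = 0.153, and 0.09 relative to the median of all probes). Within slides, Slc2a12 was lower in AR113Q on 5 of 5 slides on NCD and on 4 of 4 on HFD. The NCD difference passed with slide as a block (adjusted p = 0.0383, limma) and with array weights and no block (adjusted p = 0.0459, limma). Without CTR-HFD replicate 3 both within-diet differences passed (-0.31 on NCD, adjusted p = 0.0492, and -0.41 on HFD, adjusted p = 0.0265).

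The average over diets called 4 of the 7 transporters, Slc2a3, Slc2a4 and Slc2a12 lower and Slc2a5 higher, against 29.3% of all tested probes. With signal required on all 19 arrays, which leaves Slc2a5 out, it called 3 of 6, against 38.4%. The averaged log2 difference was -1.08 ± 0.22 for Slc2a3 (adjusted p = 0.00124), -0.63 ± 0.07 for Slc2a4 (adjusted p = 1.32e-06) and 2.61 ± 0.41 for Slc2a5 (adjusted p = 0.000112). Since only 2 of the 9 CTR arrays measured Slc2a5 above background, its averaged size is uncertain. With the other 7 held at their detection floor the log2 difference was 1.96, a point estimate in this scaling.

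**Figure D2:**
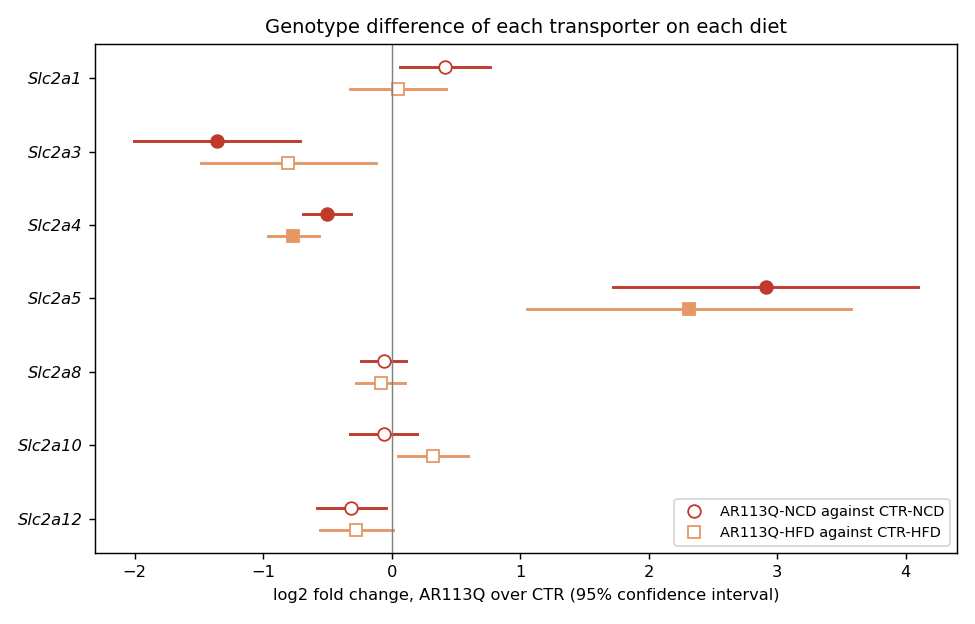
Log2 fold change of AR113Q over CTR (x axis) for the 7 tested transporters on NCD (circles) and HFD (squares), with 95% confidence intervals from limma. Filled symbols have an adjusted p under 0.05: Slc2a3, Slc2a4 and Slc2a5 on NCD, and Slc2a4 and Slc2a5 on HFD.

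Slc2a3 (GLUT3), a high-affinity glucose carrier best known from neurons, was lower in AR113Q than in CTR muscle on NCD. Its log2 signal was 0.60, 0.52, 0.57, 1.01 and 1.31 on the CTR-NCD arrays and -0.84, -0.64, -0.52, -0.67 and -0.13 on the AR113Q-NCD arrays. The groups did not overlap and were 0.64 apart at their nearest values. The log2 difference was -1.36 ± 0.31 (SE, a fold of 0.39 with a 95% interval of 0.249 to 0.609, adjusted p = 0.00481, limma), and it lay between -1.68 and -1.09 on the 5 slides taken singly. Normexp background correction ended this call (-1.01, adjusted p = 0.057, and -0.46 relative to the median of all probes).

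With HFD the Slc2a3 values spread more. They were 0.61, 0.52, -0.51 and 0.47 in CTR-HFD and -0.91, -0.21, 0.14, -0.02 and -1.66 in AR113Q-HFD. The groups overlapped through CTR-HFD replicate 3, which lay far below the other CTR-HFD arrays. The difference was -0.80 ± 0.32 (adjusted p = 0.103), and without that array it was -1.06 (adjusted p = 0.0301). Without AR113Q-HFD replicate 5, the lowest array, it was -0.52. The interaction of 0.56 ± 0.45 did not pass (adjusted p = 1), so a different genotype effect on the diets was not shown.

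Slow-fiber markers moved opposite to Slc2a3. The mean of the 8 markers was 4.24 on CTR-HFD replicate 3, against -1.67 to 0.86 on the other CTR-HFD arrays. Over the 19 arrays the Pearson correlation of Slc2a3 with this mean was -0.57, and for deviations from the group means it was -0.70. Other marker lists gave deviations near this value: -0.68 for red blood cells, -0.66 for muscle fiber and -0.62 for Schwann cells and nerve. The remaining lists lay between -0.49, for endothelial cells, and 0.365, for white adipocytes. These values describe arrays that share a scaling rule and carry no test. The CTR arrays with the highest marker means differed from each other: at 4.0, CTR-NCD replicate 2 had a Slc2a3 signal of 0.52, and at 4.24, CTR-HFD replicate 3 had one of -0.51. All 8 markers had a higher fitted mean in AR113Q on each diet, with medians of 2.29 and 1.07, and 0 of 8 passed the test on either, and their part in the Slc2a3 difference was not tested.

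**Figure D3:**
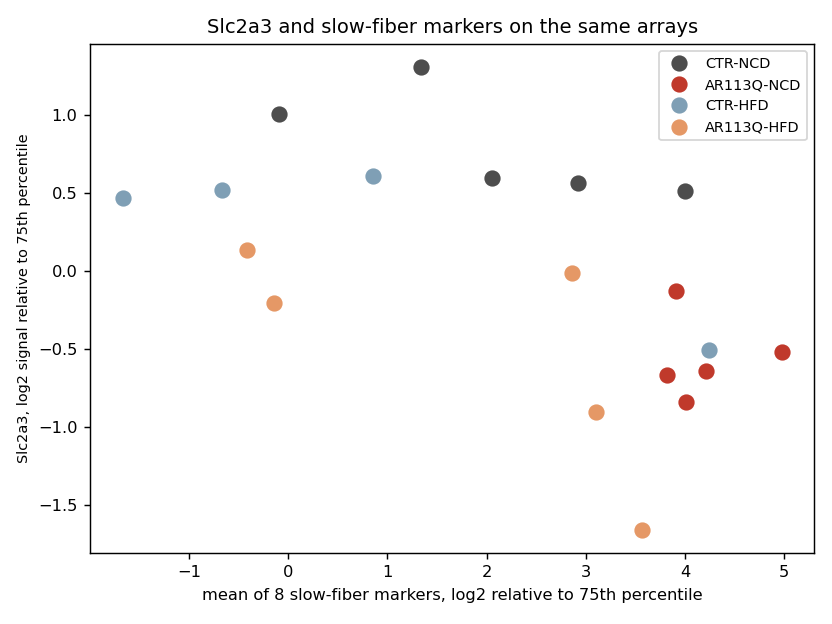
Log2 signal of Slc2a3 (y axis) against the mean log2 signal of 8 slow-fiber markers (x axis), both relative to the array's 75th percentile, on the 19 arrays. CTR-HFD replicate 3, at a marker mean of 4.24 and a Slc2a3 signal of -0.51, lies among the AR113Q-NCD arrays.

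Slc2a5, the fructose carrier, had the widest genotype difference of the 7 transporters, from a signal near background. Its log2 signal was -7.50, -6.42, -6.97, -4.97 and -4.36 on the CTR-NCD arrays and -3.80, -1.61, -3.91, -3.72 and -2.65 on the AR113Q-NCD arrays. The call of well above background was made for 2 of 5 arrays in CTR-NCD (replicates 4 and 5) and for 5 of 5 in AR113Q-NCD. The groups did not overlap, and the fitted log2 difference of the measured signals was 2.91 ± 0.56 (SE, adjusted p = 0.00158, limma). With the 3 undetected CTR-NCD arrays held at their detection floor it was 2.57, so Slc2a5 was at least 5.94-fold higher in AR113Q-NCD. Of the 12 arrays through which the probe passed the filter, 10 were AR113Q arrays. Without AR113Q-NCD replicate 2, the highest array, the fitted difference was 2.53 (adjusted p = 0.00486, limma).

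On HFD the Slc2a5 probe was well above background on 0 of 4 CTR arrays and on 5 of 5 AR113Q arrays. The measured values were -7.50, -6.90, -6.16 and -7.93 in CTR-HFD and -4.48, -5.18, -4.72, -4.96 and -4.71 in AR113Q-HFD. The fitted difference of these measured values was 2.31 ± 0.60 (means of -4.81 and -7.12, adjusted p = 0.0115, limma), with no CTR-HFD array well above background. Each CTR-HFD array was then held at the higher of its own Slc2a5 signal and the lowest signal called well above background on it. The fold was then 2.55, a point estimate without a test. This floor is approximate, since Slc2a5 on CTR-HFD replicate 3 was undetected at -6.16, above the lowest called signal of -6.27. The within-slide difference was above 0 on 5 of 5 slides on NCD and on 4 of 4 slides on HFD.

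The Slc2a5 calls were lost under normexp background correction, which adds an offset of 50 to every signal. The difference there was 0.02 on NCD (adjusted p = 0.982) and 0.42 on HFD (adjusted p = 1). Relative to the median of all probes under that correction these values were 0.57 and 0.44. In the log2 values that the authors deposited as processed, the differences were 2.24 (adjusted p = 0.00155) and 1.74 (adjusted p = 0.0135).

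Ucp1, the uncoupling protein that defines brown fat, was called well above background on the same 2 CTR-NCD arrays as Slc2a5 (replicates 4 and 5), on all 5 arrays of AR113Q-NCD, on none of the 4 of CTR-HFD and on 2 of 5 of AR113Q-HFD. AR113Q-NCD replicate 2 had both the highest Ucp1 signal, 3.85, and the highest Slc2a5 signal, -1.61. The mean of the 4 brown adipocyte markers (Ucp1, Elovl3, Zic1 and Cidea) ranged on NCD from -5.14 to -2.56 for CTR and from -4.12 to 0.68 for AR113Q, and on HFD from -5.29 to -4.30 for CTR and from -5.17 to -3.15 for AR113Q. Of the 3 markers that passed the filter, 0 passed the test on either diet (limma) and 1, Cidea, passed when averaged over diets (1.68, adjusted p = 0.0212). On NCD the differences were 3.75 for Ucp1 (adjusted p = 0.14), 2.08 for Cidea (adjusted p = 0.0542) and -0.16 for Zic1 (adjusted p = 0.873). Elovl3 was well above background on 1 of the 19 arrays.

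The correlation of Slc2a5 with the brown adipocyte mean was 0.78 over the 19 arrays and 0.74 for deviations from the group means, as a description with no test. On the 3 AR113Q-HFD arrays where Ucp1 was not well above background (replicates 2, 3 and 4), Slc2a5 was -5.18, -4.72 and -4.96, above each of the 4 CTR-HFD arrays. The mean of 7 white adipocyte markers ranged on NCD from 1.20 to 3.16 for CTR and from 1.63 to 2.83 for AR113Q, and 0 of 7 passed the test on NCD or on HFD. The part of fat tissue in the Slc2a5 difference was not tested.

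**Figure D4:**
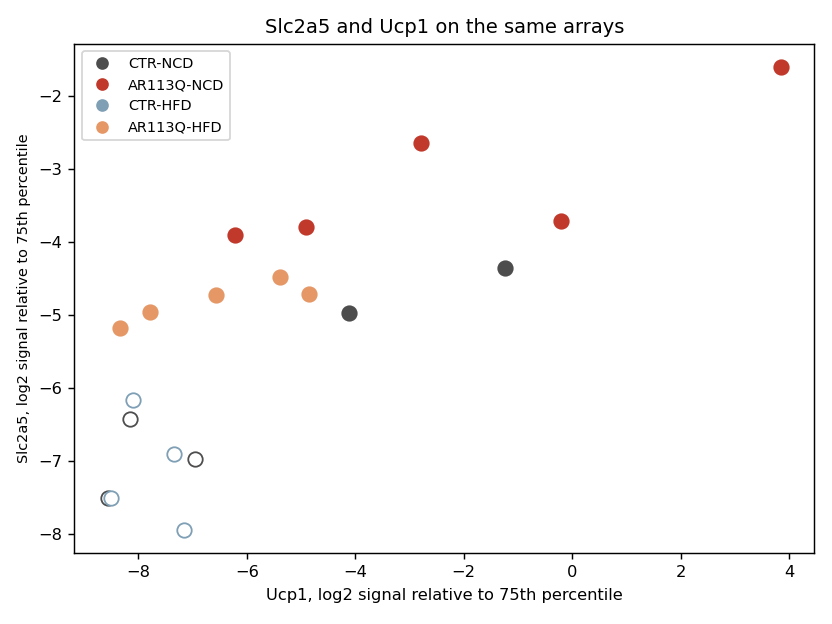
Log2 signal of Slc2a5 (y axis) against Ucp1 (x axis), both relative to the array's 75th percentile, on the 19 arrays. Open points mark arrays on which Slc2a5 was not well above background, and the 5 AR113Q-HFD arrays lie between -5.18 and -4.48 for Slc2a5 over a Ucp1 range of -8.33 to -4.85.

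The RefSeq promoter table (GRCm38.p6) held 6 of the 8 transporters, among them Slc2a5, whose window at chr4:150119094-150119393 (plus strand, ending 50 bases after the annotated start) is shown because it had the widest change. Capitals mark matches to the GC box, GGGCGG or its reverse complement CCGCCC.
Slc2a5: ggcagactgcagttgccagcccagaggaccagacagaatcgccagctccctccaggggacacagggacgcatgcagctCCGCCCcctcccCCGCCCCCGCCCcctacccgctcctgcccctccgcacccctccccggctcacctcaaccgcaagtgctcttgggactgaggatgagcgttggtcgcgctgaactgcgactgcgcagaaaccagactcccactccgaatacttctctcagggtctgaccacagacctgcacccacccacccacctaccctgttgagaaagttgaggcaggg
The window had 3 such matches, and at least 1 was found in 3 of the 6 Slc2a windows and in 35.7% of the 32851 promoters in the table. The E-box CACGTG was in 7.15% of all promoters and in 0 of the 6 Slc2a windows. These letters were searched on both strands in this window alone.

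For Slc2a1, Slc2a8 and Slc2a10 no genotype difference passed the test on either diet in the main model, and Slc2a9 was not tested. Slc2a1, the resting-state glucose carrier, was 0.44, 0.31, 0.28, 0.17 and 0.04 in CTR-NCD and 0.48, 0.95, 0.66, 0.78 and 0.42 in AR113Q-NCD. These groups overlapped at their edge, and the difference of 0.41 ± 0.17 did not pass over all probes (adjusted p = 0.105, limma). It did pass without AR113Q-HFD replicate 3 (adjusted p = 0.0383, limma) and in a fit of only the compared groups (adjusted p = 0.0425, limma). On HFD the difference was 0.05 ± 0.18 (95% interval -0.33 to 0.42, adjusted p = 0.9).

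Slc2a8 (GLUT8), a carrier held mostly on internal membranes, lay between 2.46 and 2.98 on all 19 arrays. Its genotype difference was -0.06 (95% interval -0.24 to 0.11) on NCD and -0.09 (-0.28 to 0.10) on HFD. Slc2a10 (GLUT10), also an internal carrier, was -2.59, -2.10, -2.18, -2.15 and -2.71 in CTR-NCD, -2.81, -2.76, -2.79 and -2.84 in CTR-HFD, and between -2.75 and -2.14 on the 10 AR113Q arrays. The CTR-HFD arrays lay together below all CTR-NCD and all AR113Q arrays. The diet difference in CTR was -0.46 ± 0.13 (adjusted p = 0.353) and the genotype difference on HFD was 0.32 ± 0.13 (adjusted p = 0.107), neither past the test in limma.

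Slc2a9, the urate carrier, was well above background on 0 of 19 arrays, with measured values from -8.92 to -6.84, and was not tested. This signal is only a bound, and no level or fold was drawn from it.

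No diet difference passed the test for any of the 7 transporters. In AR113Q mice, HFD against NCD called 0 of 7 members beside 0.025% of all tested probes (2 of 7, and 6.73% of all probes, at an unadjusted p under 0.05), and in CTR mice 0 of 7 beside 0% (1 of 7 and 8.66% unadjusted, limma). Averaged over genotypes the count was 0 of 7 beside 0.025% (4 of 7 and 11.2% unadjusted), and for the genotype by diet interaction 0 of 7 beside 0% (1 of 7 and 4.65% unadjusted). The 2-sided exact permutation test over arrays was run 28 times, for 7 transporters in 4 pairs of groups, and 0.00794 is the smallest p it can give here.

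The diet difference of largest size was that of Slc2a5. In AR113Q mice its 5 HFD arrays, between -5.18 and -4.48, all lay below its 5 NCD arrays, between -3.91 and -1.61. The log2 difference was -1.67 ± 0.56 (95% interval -2.86 to -0.49, adjusted p = 0.553, limma), and the exact permutation p was 0.00794. It was below 0 on all 5 slides, from -3.57 to -0.68. Without AR113Q-NCD replicate 2 it was -1.29.

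Genes around the transporters were read from lists set by role. Of 14 genes of insulin signalling to GLUT4, 3 were higher and 2 lower in AR113Q on NCD, and 3 higher and 1 lower on HFD, with medians of 0.04 and -0.03, beside 17.4% and 17.9% of 24741 gene names called over the array. Irs1, the adaptor that couples the insulin receptor to PI3-kinase, was lower by a log2 difference of -0.57 ± 0.15 on NCD (adjusted p = 0.0133) and -1.01 ± 0.16 on HFD (adjusted p = 0.000275). Pak1, a kinase acting below Rac1, was higher by 1.25 ± 0.14 (adjusted p = 1.53e-05) and 1.74 ± 0.15 (adjusted p = 1.72e-06). Pik3ca, a catalytic PI3-kinase subunit, was higher by 0.40 on NCD and 0.41 on HFD (adjusted p = 0.0112 and 0.0143). Pik3r1, a regulatory subunit, was higher on NCD (0.45), Pik3r2 on HFD (0.36), and Rac1 was lower on NCD (-0.28). Irs2 was lower when averaged over diets (-0.57, adjusted p = 0.0122). Insr and Akt2, the receptor and the kinase below it, stood at 0.05 and -0.06 on NCD and passed on neither diet.

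The 19 genes of GLUT4 vesicle traffic had 2 higher and 2 lower on each diet, with medians of -0.03 and -0.03. Over all gene names, 17.4% were called on NCD and 17.9% on HFD, and the list was not tested against that share. Rab10 and Rab13 are small GTPases of vesicle transport, and they moved in opposite directions. Rab10 was lower by -0.66 ± 0.09 on NCD (adjusted p = 7.46e-05) and -0.58 ± 0.10 on HFD (adjusted p = 0.000429). Rab13 was higher by 1.12 ± 0.12 (adjusted p = 8.44e-06) and 1.65 ± 0.13 (adjusted p = 6.79e-07). Lnpep, the aminopeptidase that travels in GLUT4 vesicles, was higher by 0.59 on NCD and 0.40 on HFD (adjusted p = 0.000114 and 0.00437). Myo5a, a vesicle motor, was lower on NCD (-0.41) and Rab14 on HFD (-0.21). Averaged over diets, 3 of the 19 were higher and 7 lower, beside 29.1% of all gene names called. Rala, Rhoq, Stxbp3a and Trip10 were then also lower, from -0.31 to -0.17, and Vamp2, a vesicle SNARE, was higher by 0.17.

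Of 15 genes that begin hexose use, 3 were lower and 0 higher on NCD, and 3 lower and 2 higher on HFD, with medians of -0.03 and -0.08. Averaged over diets, 4 were lower and 1 higher. Over all gene names, 17.4% were called on NCD, 17.9% on HFD and 29.1% averaged over diets. Hk2, the muscle hexokinase that phosphorylates imported glucose, was lower by -0.44 ± 0.15 on NCD (adjusted p = 0.0499) and -0.82 ± 0.16 on HFD (adjusted p = 0.00148). G6pc3 and Aldoa, a glucose-6-phosphatase and an aldolase, were lower on both diets, by -0.38 and -0.33 on NCD and -0.49 and -0.42 on HFD. Dak and Aldoc were higher on HFD (0.46 and 0.34), and Gpi1 was lower when averaged over diets (-0.26). Khk, which phosphorylates the fructose that GLUT5 carries, stood at -0.12 on NCD and -0.07 on HFD and passed on neither (adjusted p = 0.384 and 0.698, limma).

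Of 16 transcription factors and regulators tied to sugar transporter genes, 2 were higher and 0 lower on NCD, and 1 higher and 0 lower on HFD, with medians of -0.03 and -0.08, beside the 17.4% and 17.9% called among all gene names. Mlx, the partner of the glucose-sensing factor ChREBP, was higher by 0.39 ± 0.06 (adjusted p = 0.000417) and 0.54 ± 0.07 (adjusted p = 3.86e-05), and Epas1 was higher on NCD (0.30). Averaged over diets, Hif1a was higher (0.26) and Arrdc4 lower (-0.56). Among 9 other sugar carriers, 7 were tested and 0 passed on either diet (medians -0.02 and -0.02). Slc2a6 was lower when averaged over diets (-0.44, adjusted p = 0.0434, limma), and Slc2a2, the liver glucose carrier, was well above background on 0 of 19 arrays.

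**Figure D5:**
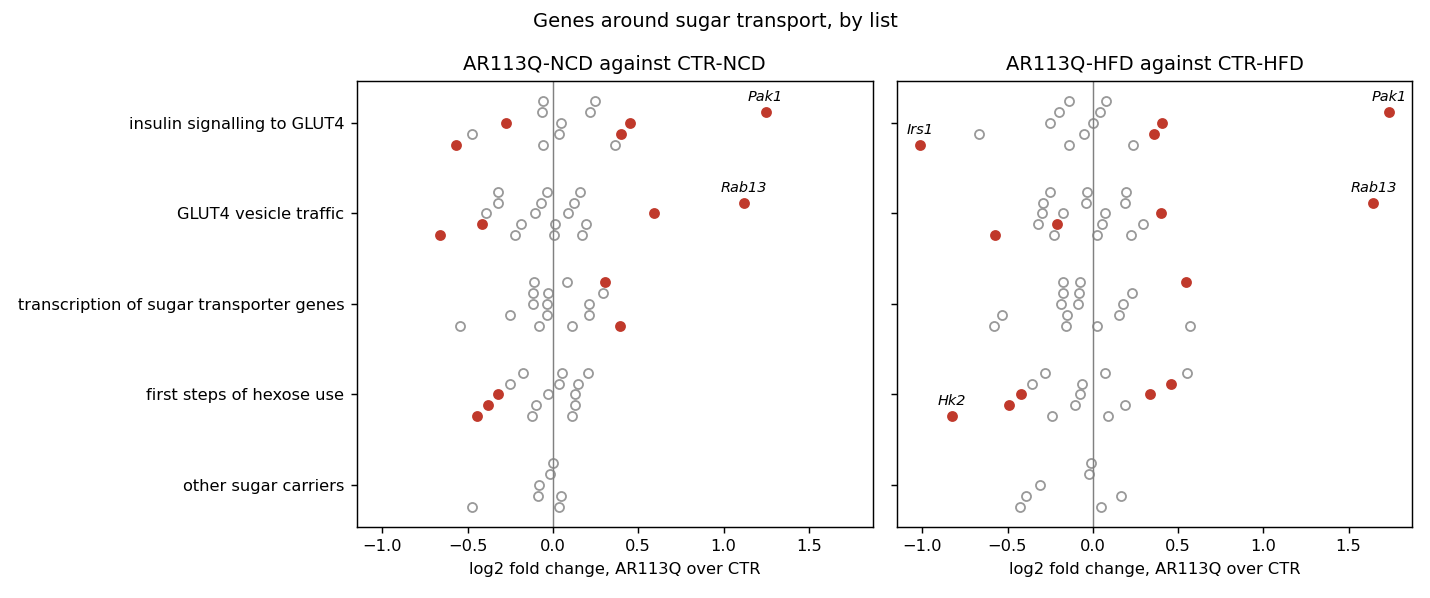
Log2 fold change of AR113Q over CTR (x axis) on NCD (left) and HFD (right) for the tested genes of 5 lists around sugar transport (y axis). Filled points have an adjusted p under 0.05 in limma, and the named genes with a log2 change beyond 0.8 in size are Pak1 and Rab13 on both diets and Irs1 and Hk2 on HFD.

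The genes most like each transporter were found by Pearson correlation over the 19 arrays among 19652 named genes, as a description over arrays that share the genotype groups. For Slc2a5 the leading gene was Thrsp, a regulator of fat synthesis (r = 0.93, and 0.78 for deviations from the group means), followed by 1700037H04Rik (0.86 and 0.63) and Agpat2, an enzyme of glycerolipid synthesis (0.86 and 0.59). For Slc2a4 they were Cmss1 (0.98 and 0.92), Pop5, a subunit of RNase P (0.98 and 0.92), and St8sia5, a sialyltransferase (0.97 and 0.76). For Slc2a3 they were E130308A19Rik (0.94 and 0.90), Mcm2, a replication helicase subunit (0.94 and 0.84), and Clcn1, the chloride channel of skeletal muscle (0.94 and 0.87). For Slc2a12 they were Tsr3, Sdf2 and Rfxap (0.94, 0.94 and 0.93). Among the transporters themselves, Slc2a8 and Slc2a12 varied together most closely (r = 0.77, and 0.85 within groups), whereas Slc2a1 and Slc2a3 varied in opposite directions (r = -0.75, and -0.76 within groups).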

How the data were processed

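Total RNA of quadriceps was labelled with Cy3 and hybridised on Agilent 4x44K mouse arrays. The deposited scanner files hold spot intensity values that the authors obtained with Feature Extraction 10.7.3.1 (background-subtracted and detrended within an array, no scaling between arrays). The authors also deposited a table of log2 values processed with limma, whose scaling method is not given in the sources used here, and it served as an alternative. Here, control spots (43020 spots of 39429 probes remained) and outlier spots were left out, log2 intensity was averaged per probe, and each array's 75th percentile was subtracted. Probes entered the test (32026) when 4 or more of the 19 arrays called a share of 0.5 or more of their spots well above background. Of these, 119 had a missing value on some array, none of them a Slc2a probe. With limma 3.58.1 (R 4.3.3), the 4 group means were estimated from all 19 arrays, 7 contrasts were taken, and p-values were Benjamini-Hochberg adjusted over all tested probes. A transporter was called at an adjusted p under 0.05. Exact permutation tests checked single probes. For a list gene with several probes, the passing probe with the highest mean was used. Named were all Slc2a members, list genes called in any comparison or described by role, and the 3 genes most correlated with each called member. Some genes of the lists are not reported here. The transporters and the lists were chosen with earlier results of these data known. The model was tested on simulated data. Arrays carry no read depth, so their number limits the precision. Alternatives were other scalings, background correction, filters, blocks for slide or replicate number, weights, variance models, a fold rule and leaving out each array.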

Additional observations from a re-analysis of the deposited data

Results flagged for a closer look

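Among 32 sets of values (8 transporters in 4 groups), 2 held an array that stood apart from the rest of its group by Dixon's test, and chance alone marks about 1 in 20 sets. Slc2a3 was -0.51 on CTR-HFD replicate 3, while the other 3 CTR-HFD arrays lay between 0.47 and 0.61. Slc2a12 was 1.35 on CTR-NCD replicate 5, while the next highest CTR-NCD array was at 0.99. The Slc2a12 difference averaged over diets was -0.25 without that array (adjusted p = 0.0382, limma) and -0.30 with it.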

How the results depend on the processing

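The counts of called transporters moved by over 1.5 times in 6 alternatives and stayed within that bound in the other 208. Normexp background correction called 0 of 7 on NCD (3 otherwise, and 2 at an unadjusted p under 0.05 in limma), 1 of 7 on HFD (2 otherwise) and 2 of 7 averaged over diets (4 otherwise), while the share of all probes called fell to 2.55%, 2.91% and 7.18%. Relative to the median of all probes, Slc2a12 on NCD turned from lower to higher (0.40) there, as Slc2a4 did. Requiring signal on all 19 arrays removed the Slc2a5 probe from the test and left 1 call on HFD. A fold of at least 1.5 or at most 0.6 left 2 calls averaged over diets. Leaving out single arrays gave 3 to 4 calls on NCD, 2 to 4 on HFD (4 without CTR-HFD replicate 3), 3 to 5 averaged over diets, and 0 in each of the other comparisons. Beside these, 14.2% to 18.9% of all probes were called on NCD, 14.4% to 18.6% on HFD and 26.6% to 30.4% averaged over diets. Of 1442 values of single transporters, 0 reversed a called direction, 9 lost and 10 gained a call, and 32 changed sign with no call in either setting. Same-numbered arrays deviated together on average, with a mean correlation of 0.223 (27 pairs, from -0.21 to 0.54), beside -0.055 for other pairs. Arrays of the same slide did so too, at 0.26 beside -0.065. Slide and replicate number coincided on all arrays but CTR-HFD replicate 4, on slide 5, so these groupings cannot be told apart. The labels number the replicates but do not state pairs, and the main model held no block. With the replicate block the counts were 4 on NCD, 3 on HFD and 4 averaged over diets. The share of all probes called rose as well, to 22.5%, 21.8% and 34.3%. Slc2a12 was gained on NCD (adjusted p = 0.0399, limma) and Slc2a10 on HFD (adjusted p = 0.0202). With slide as a block Slc2a12 passed on NCD (adjusted p = 0.0383, limma), and the share of all probes called there rose from 17.6% to 24.5%. The cause of these changes was not tested. Slc2a9 was not analysed in the authors' processed values, and a fit of only the compared groups was not made for the interaction and the averages. Signals near background, as for Slc2a5 and Slc2a9, limit what these arrays can resolve.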
